A study of Mus musculus with 8 samples.

Results

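A set of 8 genes that were at or near 0 counts in CD48dim progenitors were followed through 4 sorted populations of mouse bone marrow: Siglech, Cd209a, Klrd1, Itgax, Kmo, Ctnnd2, Rasal1 and Strip2. They are 8 of 24411 genes in the files. With all 8 libraries in the fit, all 8 genes passed the filter on low counts that left 13177 genes for testing. Rasal1 did not pass it with only the CD34bright and CD48bright libraries. They were picked by name for near-absent counts in CD48dim cells together with a level that was highest in CD41- CD9- cells or shared with CD48bright cells. Those contrasts chose the genes, so they are described here without a test. Siglech, Itgax and Cd209a are widely used dendritic cell genes, while Kmo, Ctnnd2, Klrd1, Rasal1 and Strip2 are better known from other cells, so "dendritic-type" names the set rather than each gene.

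All cells were taken from the marrow of wild-type mice of strain C57BL/6 and were KIT+ CD16/32-, a gate for myeloid progenitors. The CD41- CD9- cells were CD34dim and lacked both CD41 and CD9. The CD34bright cells were CD41+ CD9+. The CD48bright and CD48dim cells were both CD34dim CD41+ CD9+ and were separated by CD48, a surface protein of blood cells. The labels give no ages and do not say whether the 2 libraries per population came from different animals or sorts. The p-values here therefore reflect library-to-library spread, part or all of which may be technical.

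Dendritic cells present antigen and arise in bone marrow from progenitors that pass through a stage shared with other myeloid and, for plasmacytoid cells, lymphoid lineages. Plasmacytoid dendritic cells carry endosomal Toll-like receptors and release type I interferon, and conventional dendritic cells take up antigen and display it to T cells. IRF8, TCF4, SPIB and PU.1 are transcription factors long tied to these cells.

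Each population had 2 RNA-seq libraries, of 7237587 to 20632005 expected counts. Among transcripts of the gate proteins, Cd48 averaged 204 ± 35.5 CPM (SD, n = 2) in CD48bright cells and 26.3 ± 13.4 CPM in CD48dim cells. Itga2b, the gene of CD41, averaged 2.5 CPM in CD41- CD9- cells and 79.0 to 134 CPM in the other populations. Cd9 averaged 7.43 CPM in CD41- CD9- cells and 40.1 to 48.8 CPM in the others. Cd34 averaged 485 ± 34.7 CPM in CD34bright cells and 181 to 317 CPM in the CD34dim populations. The spread was wide in 2 of these, with 238 and 396 CPM in CD41- CD9- and 233 and 397 CPM in CD48bright cells. Cd34 was not called in CD34bright over CD48bright cells by edgeR (log2 fold change 0.62 ± 0.38, SE). Kit was not level across the gates, at 299 ± 83.4 CPM in CD41- CD9- and 998 ± 322 CPM in CD48dim cells. That fall was called (log2 fold change -1.74, adjusted p = 0.036, edgeR). Kit averaged 609 CPM in CD34bright and 687 CPM in CD48bright cells. Of the CD16/32 genes, Fcgr3 had 87.3 and 22.7 CPM in CD48bright and 39.5 and 3.02 CPM in CD48dim cells. Fcgr3 averaged 10.9 CPM in CD41- CD9- and 38.1 CPM in CD34bright cells, and Fcgr2b 17.3 to 36.2 CPM over the populations. Levels are CPM, the counts relative to the TMM-scaled library total. CD48dim replicate 1 stood apart in other transcripts, with a summed level of 4172 CPM over 10 mature neutrophil markers. CD48dim replicate 2 had 624 CPM over them. CD41- CD9- replicate 1 had 701 CPM and CD41- CD9- replicate 2 had 49.9 CPM, so these 2 libraries also differed. The CD34bright and CD48bright libraries had 115 to 165 CPM. CD48dim replicate 1 also had 288 CPM over 6 haemoglobin genes, against 6.96 to 53.0 CPM elsewhere, and counts for 16406 genes, against 12663 in replicate 2.

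The region around the transcription start is shown for the 4 genes in which a searched motif was found, 250 bases before to 50 bases after the start, from RefSeq on GRCm38.p6, the same assembly as mm10. RefSeq entries were matched for 6 of the 8 genes. For Siglech and Itgax the start used for the window is not the first base of the gene span given below. The Siglech window lies on the plus strand at chr7:55767934-55768233, the Kmo window on the plus strand at chr1:175631943-175632242, the Cd209a window on the minus strand at chr8:3748935-3749234 and the Itgax window on the plus strand at chr7:128129300-128129599. Each is printed 5′ to 3′ along the gene, and capitals mark motif matches on either strand.
Siglech: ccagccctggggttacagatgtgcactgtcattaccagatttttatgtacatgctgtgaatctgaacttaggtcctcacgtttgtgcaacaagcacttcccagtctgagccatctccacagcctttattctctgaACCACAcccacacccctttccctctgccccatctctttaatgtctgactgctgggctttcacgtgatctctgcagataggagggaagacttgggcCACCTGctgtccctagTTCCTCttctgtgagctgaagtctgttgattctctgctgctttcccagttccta
Kmo: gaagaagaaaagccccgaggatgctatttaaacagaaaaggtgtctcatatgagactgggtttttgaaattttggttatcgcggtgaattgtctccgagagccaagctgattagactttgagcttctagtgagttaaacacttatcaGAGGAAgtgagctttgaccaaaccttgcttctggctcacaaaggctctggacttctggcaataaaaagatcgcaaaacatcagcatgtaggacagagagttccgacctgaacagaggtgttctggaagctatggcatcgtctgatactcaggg
Cd209a: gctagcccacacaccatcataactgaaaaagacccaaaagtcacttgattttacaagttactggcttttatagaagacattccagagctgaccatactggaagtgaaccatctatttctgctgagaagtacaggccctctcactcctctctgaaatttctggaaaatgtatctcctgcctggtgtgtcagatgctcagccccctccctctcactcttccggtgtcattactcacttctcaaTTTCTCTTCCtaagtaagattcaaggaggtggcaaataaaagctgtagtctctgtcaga
Itgax: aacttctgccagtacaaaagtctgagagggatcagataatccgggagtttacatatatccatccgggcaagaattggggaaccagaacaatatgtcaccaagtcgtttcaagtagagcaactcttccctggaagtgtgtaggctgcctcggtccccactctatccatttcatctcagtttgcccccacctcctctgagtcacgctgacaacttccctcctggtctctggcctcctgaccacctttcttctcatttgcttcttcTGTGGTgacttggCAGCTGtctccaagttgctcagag
The capitals in Siglech are, in order, the RUNX core (letters TGTGGT, here on the opposite strand), the E-box CAGGTG (opposite strand) and the PU.1 core GAGGAA (opposite strand). In Kmo they are the PU.1 core, in Cd209a an ETS-IRF composite (GGAA and GAAA separated by any 2 bases, opposite strand), and in Itgax the RUNX core and the E-box CAGCTG.

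These motifs are common letters in promoter windows. Of 32851 windows of the same length, 28.3% held GAGGAA, 20.2% CAGGTG, 16.8% TGTGGT, 16.3% CAGCTG and 2.72% the ETS-IRF composite. The paired IRF motif, GAAA repeated after any 2 bases and present in 3.44% of windows, was in none of the 6. The windows of Siglech, Kmo, Cd209a and Itgax held 2, 7, 1 and 5 CpG dinucleotides, against a median of 7 over all windows. Those of Ctnnd2 and Strip2 held 28 and 22 and no match to any of the 6 motifs searched. The set therefore spans promoters poor and rich in CpG, and no single motif was found in more than 2 of the 6.

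Among the surface receptors, Siglech (chromosome 7, 55768154 to 55779448) encodes a sialic acid binding lectin used as a marker of mouse plasmacytoid dendritic cells. It lay at 199 and 151 CPM in CD41- CD9- cells, 1.34 and 6.82 CPM in CD34bright, 9.3 and 25.0 CPM in CD48bright, and 0 in both CD48dim libraries. Siglech was the most abundant of the 8 in both CD41- CD9- libraries. Its mean there, 175 ± 34.1 CPM (SD, n = 2), was 10.2 times the 17.2 ± 11.1 CPM of CD48bright cells, with ratios between single libraries of 6.03 to 21.4.

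Cd209a (chromosome 8, 3743395 to 3748984) encodes a C-type lectin related to human DC-SIGN. It differed from the other 7 in being near its highest level in both populations: 22.6 and 23.8 CPM in CD41- CD9- cells, 2.78 and 9.38 CPM in CD34bright, 20.4 and 20.4 CPM in CD48bright, and 0 and 0 in CD48dim. The ratio of the CD41- CD9- to the CD48bright mean was 1.14, with 1.11 to 1.17 between single libraries. The 2 populations did not overlap, but the gap was small beside the 3.96 to 105 of the other members.

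Klrd1 (chromosome 6, 129588092 to 129598775) encodes CD94, which pairs with NKG2 proteins on natural killer cells. It had 29.3 and 20.7 CPM in CD41- CD9- cells, 0.361 and 1.7 CPM in CD34bright, 3.48 and 7.49 CPM in CD48bright, and 0 and 0 in CD48dim. All 4 populations were separate. Its mean in CD41- CD9- cells was 4.56 times that in CD48bright cells.

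Itgax (chromosome 7, 128129526 to 128150657) encodes CD11c, the integrin chain by which dendritic cells are most often recognised. Its level was 85.1 and 98.4 CPM in CD41- CD9- cells, 4.12 and 4.55 CPM in CD34bright, 19.1 and 27.2 CPM in CD48bright, and 0.147 and 0 CPM in CD48dim, where 2 counts were found in all. The CD41- CD9- mean was 3.96 times the CD48bright mean. The 4 populations were again separate, with CD34bright below CD48bright.

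Kmo (chromosome 1, 175632193 to 175660853) encodes kynurenine 3-monooxygenase, an enzyme of tryptophan breakdown on the outer mitochondrial membrane. It lay at 110 and 84.5 CPM in CD41- CD9- cells, 8.81 and 6.61 CPM in CD34bright, 18.6 and 22.2 CPM in CD48bright, and 0 and 0 in CD48dim. The order of populations was that of Siglech, with a smaller step of 4.76 times between the 2 highest.

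Ctnnd2 (chromosome 15, 30172534 to 31029344) encodes delta-catenin, a p120 family protein of cell junctions known mainly from neurons. It lay at 47.6 and 46.0 CPM in CD41- CD9- cells, 1.96 and 1.78 CPM in CD34bright, 6.86 and 9.32 CPM in CD48bright, and 0 and 0 in CD48dim. The step from CD48bright to CD41- CD9- was 5.78 times.

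The last 2 genes were nearly confined to CD41- CD9- cells. Rasal1 (chromosome 5, 120648040 to 120679597), a GTPase activating protein that switches off RAS, had 29.6 and 35.7 CPM in CD41- CD9- cells, 0.876 and 0 CPM in CD34bright, 0.26 and 0.365 CPM in CD48bright, and 0 and 0 in CD48dim. Its CD34bright level rests on 17 counts in 1 library and 0 in the other, and its CD48bright level on 5 and 4 counts. The CD41- CD9- mean was 105 times the CD48bright mean, with 81.1 to 138 between single libraries.

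Strip2 (chromosome 6, 29916976 to 29959681), a component of the striatin-interacting phosphatase and kinase (STRIPAK) complex, had 31.0 and 29.2 CPM in CD41- CD9- cells, 0.928 and 2.56 CPM in CD34bright, 2.5 and 0.822 CPM in CD48bright, and 0.0734 and 0 CPM in CD48dim, which is 1 count. Its CD41- CD9- mean was 18.1 times the CD48bright mean. For Rasal1 and Strip2 the CD34bright and CD48bright libraries overlapped, so these 2 populations had no order.

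**Figure D1:**
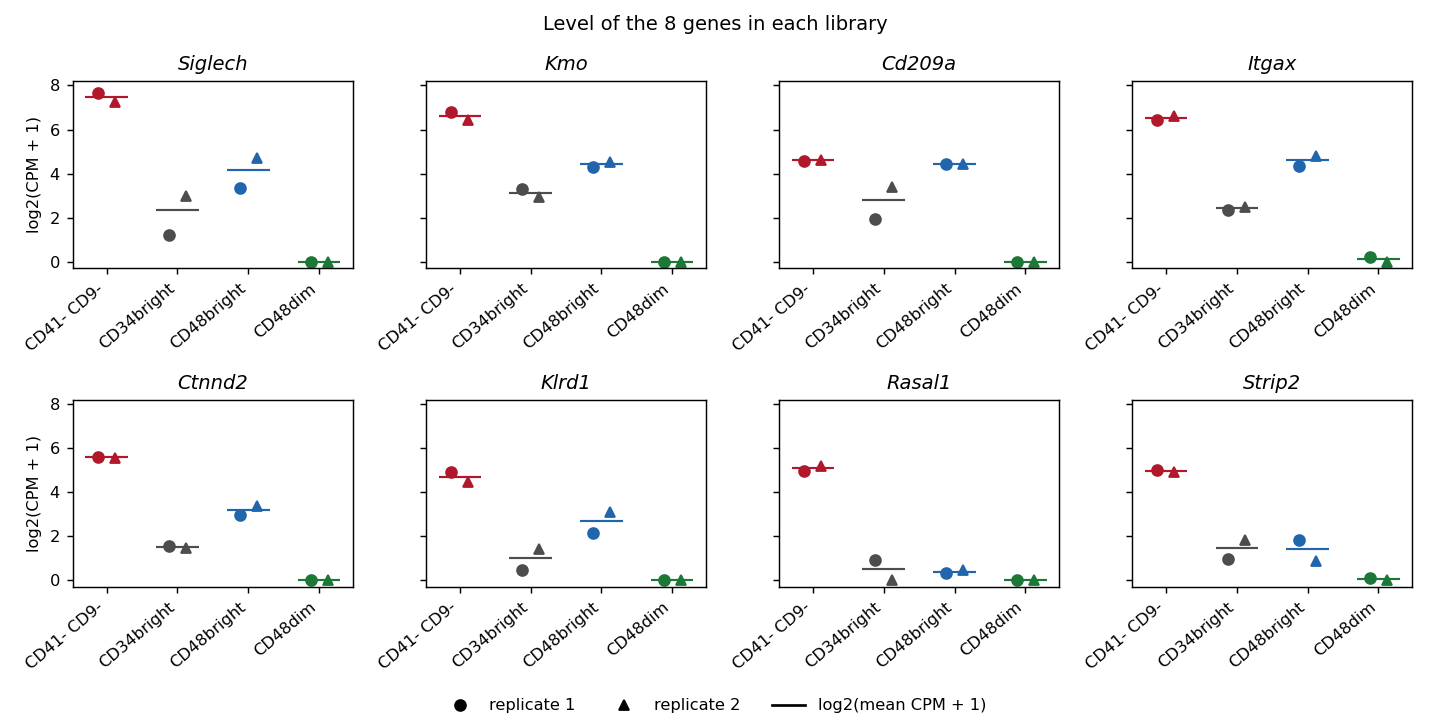
Level of each of the 8 genes, as log2(CPM + 1), by population, with circles for replicate 1, triangles for replicate 2 and a line at the mean CPM of the 2. Points in CD48dim lie at or near 0 in every panel, Cd209a is level between CD41- CD9- and CD48bright cells, and Rasal1 and Strip2 are low in both CD34bright and CD48bright cells.

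Together the 8 genes summed to 554 and 489 CPM in CD41- CD9- cells, 21.2 and 33.4 CPM in CD34bright, 80.5 and 113 CPM in CD48bright, and 0.22 and 0 CPM in CD48dim. The CD48dim sum is 3 counts in replicate 1 and none in replicate 2. Of the 8 genes, 6 had no count in either CD48dim library, which over both libraries allows a level of up to 0.143 CPM (3 counts). Against that limit the CD41- CD9- mean was at least 1221-fold higher for Siglech, 677-fold for Kmo, 326-fold for Ctnnd2, 228-fold for Rasal1, 174-fold for Klrd1 and 162-fold for Cd209a. For Itgax, with 2 counts, the ratio of pooled counts was 959 with a 95% counting interval of 265 to 7920, and for Strip2, with 1 count, it was 630 with an interval of 113 to 24901. Limits and intervals cover counting error only, since amplified reads are not independent molecules.

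CD48bright and CD48dim cells differ in the gate by CD48 alone, and here too the gap was wide for most of the set. Against the same limit the CD48bright mean was at least 142-fold higher for Kmo and for Cd209a, 120-fold for Siglech, 56.4-fold for Ctnnd2 and 38.3-fold for Klrd1. For Rasal1 the bound was only 2.18-fold, since CD48bright cells had 9 counts. In bulk libraries, fewer cells of a type and less RNA per cell cannot be told apart, and this holds for every level given here.

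Separation of single libraries was common in the whole table and is given for the 8 genes as a description. Both CD41- CD9- libraries lay above both CD48dim libraries for 8 of 8, as for 22.5% of all tested genes, and above both CD48bright libraries for 8 of 8, as for 19.7% of all tested genes. Both CD48bright libraries lay above both CD48dim libraries for 8 of 8, as for 20.2% of all.

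Levels per transcript length were compared between genes with the deposited TPM values, which divide by transcript length. The order of the 8 was the same in both CD41- CD9- libraries: Siglech led with a mean of 154 ± 19.3 TPM (SD, n = 2), then Kmo with 81.3 ± 9.21, Klrd1 with 76.0 ± 14.2, Itgax with 46.3 ± 8.05, Cd209a with 35.6 ± 3.66, Rasal1 with 20.8 ± 4.28, Ctnnd2 with 15.6 ± 0.764 and Strip2 with 11.1 ± 0.346 TPM. Of the neighbours in this order, Kmo and Klrd1 overlapped between libraries and the others did not. Klrd1 was close to Kmo by TPM although its CPM, 25.0 ± 6.03, was well below the 97.0 ± 17.7 CPM of Kmo.

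In CD48bright cells Cd209a led in both libraries, at 26.7 and 32.4 TPM. Kmo had 13.3 and 19.5 TPM there, Klrd1 9.21 and 23.6 TPM, Itgax 8.14 and 14.3 TPM, and Siglech a mean of 15.0 ± 11.3 TPM. Kmo, Klrd1, Itgax and Siglech were therefore not apart beyond their spread. Rasal1 was last in both CD48bright libraries. In CD34bright cells none of the 8 passed 13.2 TPM, the level of Cd209a in replicate 2.

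**Figure D2:**
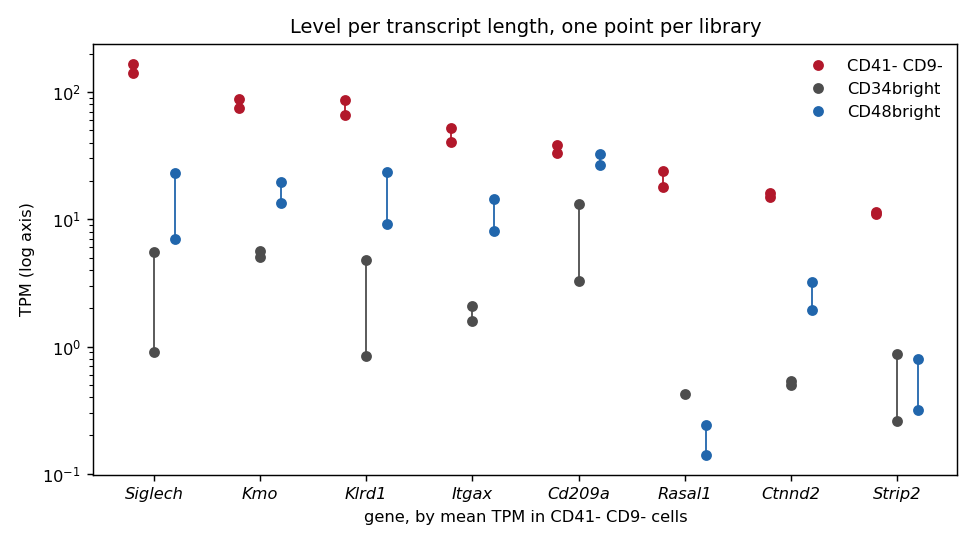
TPM of each gene in each library on a log axis, with the 2 libraries of a population joined by a line. CD41- CD9- points run from Siglech at 167 and 140 TPM to Strip2 at 10.9 and 11.4 TPM, and Cd209a is the one gene whose CD48bright points come near them. Zeros (CD48dim levels and Rasal1 in 1 CD34bright library) cannot be drawn on this axis.

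The difference of CD34bright from CD48bright cells was put to edgeR's quasi-likelihood test in a fit of all 13177 genes. A level highest in CD41- CD9- cells, or shared with CD48bright cells, is judged against CD34bright cells too. CD34bright values thus entered the choice of the 8 genes, which favours low levels there and high levels in CD48bright cells. The direction, separation and size of the differences below are not independent of that choice. Their comparison with all tested genes is a description. None of the 8 genes passed an adjusted p of 0.05, and neither did any other tested gene (0% called by edgeR, 37 genes by DESeq2 and 0 by limma-voom). An unadjusted p under 0.05 was reached by 262 genes, 1.99% of those tested. Among the 8, 6 reached it, each with the lower level in CD34bright cells, against 1.62% of all tested genes. The same 6 had both CD34bright libraries below both CD48bright libraries, against 16.7% of all tested genes.

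Itgax had the smallest p of the set. It averaged 4.33 ± 0.299 CPM in CD34bright cells and 23.2 ± 5.72 CPM in CD48bright cells (SD, n = 2 each), a log2 fold change of -2.42 ± 0.49 (SE) with an adjusted p of 0.764 by edgeR's quasi-likelihood test. That call moves with the test: the adjusted p was 0.000286 with DESeq2, and 0.0270 by edgeR without the CD48dim libraries, which do not enter the comparison but share the estimate of spread. Leaving out CD48dim replicate 1 or CD48dim replicate 2 also brought Itgax below 0.05.

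The other 5 lower genes were Klrd1, with a log2 fold change of -2.42 and a 95% interval of -4.51 to -0.32, Ctnnd2 with -2.11 (-3.37 to -0.84), Siglech with -2.08 (-3.80 to -0.36), Cd209a with -1.75 (-3.33 to -0.16) and Kmo with -1.40 (-2.36 to -0.44). Rasal1, at 0.438 ± 0.619 CPM in CD34bright and 0.313 ± 0.0746 CPM in CD48bright cells, had a log2 fold change of 0.56 with an interval of -2.26 to 3.38. That value rests on 17 and 0 counts in CD34bright and 5 and 4 counts in CD48bright cells. With only these 2 populations in the fit, Rasal1 did not pass the filter on low counts. Strip2, at 1.74 ± 1.15 CPM in CD34bright and 1.66 ± 1.18 CPM in CD48bright cells, had 0.04 with an interval of -1.80 to 1.88. The median over the 8 genes, Rasal1 included, was -1.91, beside -0.01 over all tested genes.

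**Figure D3:**
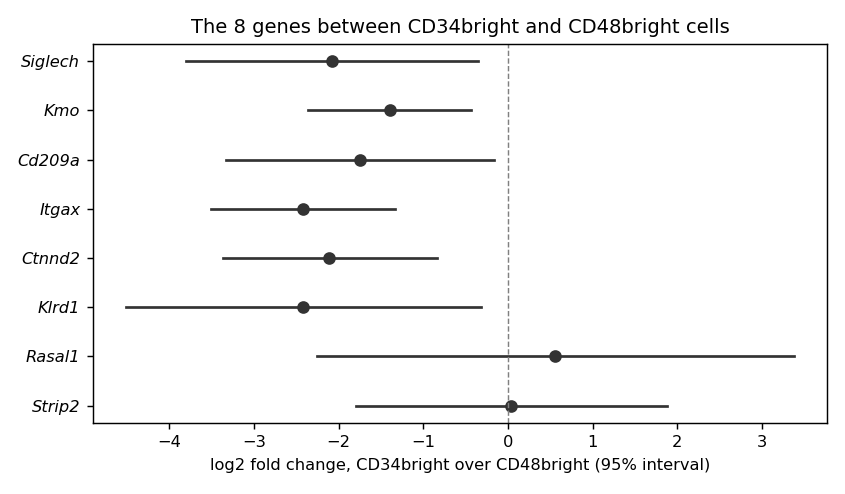
Log2 fold change of each gene in CD34bright over CD48bright cells from the edgeR fit, with its 95% interval, 2 libraries per population. In all, 6 intervals lie below 0, from Kmo at -1.40 to Itgax and Klrd1 at -2.42, and those of Rasal1 and Strip2 span 0.

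Partner and family genes were read in CD41- CD9- over CD48dim cells. DAP12, encoded by Tyrobp, is the signalling adaptor of Siglec-H. It rose in CD41- CD9- cells, to 210.4 ± 37.9 CPM against 15.7 ± 18.7 CPM in CD48dim cells (log2 fold change 3.72 ± 0.86, edgeR adjusted p = 0.046), with 65.5 CPM in CD34bright and 94.4 CPM in CD48bright cells. That call was lost without any 1 of the 6 libraries outside CD48dim, and the change was 6.42 without CD48dim replicate 1 and 2.86 without CD48dim replicate 2. Of the 8 tested sialic acid binding lectins and adaptors, Tyrobp was the 1 that passed, against 4.02% of all genes, and their median log2 fold change was 0.80 beside -0.06 over all genes. Cd33, another lectin of this family, had 108 ± 15.1 CPM in CD41- CD9- and 12.6 ± 9.42 CPM in CD48dim cells and an adjusted p of 0.0536 by edgeR. Siglecf, the eosinophil lectin, did not pass, with 9.87 ± 4.06 CPM in CD41- CD9- and 14.3 ± 0.671 CPM in CD48dim cells (log2 fold change -0.54). Its level was higher in the other populations, at 45.9 ± 0.0108 CPM in CD48bright and 52.0 ± 8.9 CPM in CD34bright cells. DESeq2 called 3 of the list, Tyrobp, Cd33 and Siglec1. Siglec1 was the lower one, at 0 in CD41- CD9- cells and at 7.48 and 0 CPM in CD48dim cells.

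CD11c reaches the surface with the beta 2 chain, encoded by Itgb2. That gene was present everywhere, at 61.1 ± 0.709 CPM in CD41- CD9-, 25.1 CPM in CD34bright, 63.4 ± 11.8 CPM in CD48bright and 51.6 ± 15.8 CPM in CD48dim cells, with a log2 fold change of 0.25 ± 0.36 between CD41- CD9- and CD48dim. Of 4 beta 2 integrin genes tested in that comparison 2 rose: Itgal, the alpha chain of LFA-1, by 1.77 ± 0.31 (adjusted p = 0.0173, edgeR), and Itgad, which was at 0 in CD48dim cells and at least 41.5-fold higher (adjusted p = 0.037, edgeR). Itgam, which encodes CD11b, had 111 ± 7.12 CPM in CD41- CD9- and 113 ± 9.52 CPM in CD48dim cells. The list's median was 1.01. The Itgal call was lost without CD41- CD9- replicate 1 or CD41- CD9- replicate 2, and the Itgad call without any 1 of the 6 libraries outside CD48dim.

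The NKG2 partners of CD94 were almost absent. Klrc1 had 0.158 CPM in CD41- CD9- cells and 1.21 CPM in CD48bright cells, and Klrc2 and Klrc3 had no count in CD41- CD9- cells. Of 7 tested partners and natural killer receptors 1 rose over CD48dim, Klrk1 (NKG2D), at 13.1 ± 5.4 CPM in CD41- CD9- and 1.24 ± 0.193 CPM in CD48dim cells (adjusted p = 0.0469, edgeR), and the list's median was 1.97, or 1.11 with genes at 0 in CD48dim cells set to their bound. The Klrk1 call was lost without any 1 of the 6 libraries of CD41- CD9-, CD34bright and CD48bright cells. The summed level of 14 natural killer and T cell markers was 57.3 to 91.5 CPM in CD41- CD9- cells, 281 to 346 in CD34bright, 310 to 456 in CD48bright and 70.4 to 274 in CD48dim cells, and 0 of 11 tested passed in CD41- CD9- over CD48dim by edgeR (2 at an unadjusted p below 0.05, both lower, and 1 by DESeq2). Most of that sum was Nkg7, at 52.4 ± 13.8 CPM in CD41- CD9- and 162 ± 137 CPM in CD48dim cells. Of the 11 tested, 7 were higher in sign in CD41- CD9- cells, and their median log2 fold change was 1.36, or 0.81 with genes at 0 in CD48dim cells set to their bound.

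Of the other kynurenine pathway genes, 0 of 6 tested were called between CD41- CD9- and CD48dim cells by edgeR (3 by DESeq2, 0 by limma-voom). By edgeR 4 reached an unadjusted p below 0.05, 3 higher and 1 lower. In sign 5 of the 6 were higher, and their median log2 fold change was 1.05. Kynu, the kynureninase gene, had 27.7 ± 8.1 CPM in CD41- CD9-, 0.539 CPM in CD34bright, 7.27 ± 7.93 CPM in CD48bright and 0.77 ± 1.09 CPM in CD48dim cells (log2 fold change 5.04, adjusted p = 0.106, edgeR). Haao, which acts after KMO in the pathway, had 27.1 ± 6.1 CPM against 7.59 ± 5.87 CPM in CD48dim cells, with no pass. Kyat1 went the other way, with 4.43 ± 2.96 CPM in CD41- CD9- and 22.7 ± 12.9 CPM in CD48dim cells (log2 fold change -2.35). Kyat1 was among the 3 genes called by DESeq2. Ido1, whose product starts the pathway in dendritic cells, had no count in any library.

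Among relatives of the other members, Cd209d had 2.99 and 12.8 CPM in CD41- CD9- cells, 0.825 and 0 in CD34bright, 2.75 and 2.56 in CD48bright, and 0 and 0 in CD48dim, and 0 of 3 tested CD209 genes passed by edgeR (1 at an unadjusted p below 0.05 and 1, Cd209d, by DESeq2). Their median was 5.63, or 1.63 with genes at 0 set to their bound. Ctnnd1, which encodes p120-catenin, fell in CD41- CD9- cells, to 55.1 and 58.6 CPM against 162 and 238 CPM in CD48dim cells (log2 fold change -1.81 ± 0.32, adjusted p = 0.0172, edgeR), opposite in sign to the difference in Ctnnd2, and was the 1 of 5 tested family genes that passed (median 0.39). Of 9 RAS GTPase activating proteins Rasa4 rose by 2.72 ± 0.53 (adjusted p = 0.0262) and Dab2ip fell by 1.95 on the log2 scale (adjusted p = 0.0346, both edgeR), with a median of -0.10. The calls of Ctnnd1 and Rasa4 were lost without CD41- CD9- replicate 1 or CD41- CD9- replicate 2, and that of Dab2ip without any 1 of the 6 libraries outside CD48dim. The change of Rasa4 was 3.41 without CD48dim replicate 2. None of 15 STRIPAK genes passed by edgeR (5 at an unadjusted p below 0.05 and 3 by DESeq2), and their median was 0.21.

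Other dendritic cell genes were read from 3 lists that leave out the 8 members, with 52 genes in the files and 47 tested. In CD41- CD9- over CD48dim, 14 rose and 0 fell, which is 29.8%, beside 4.02% of all tested genes in either direction and 1.98% of them higher (edgeR, adjusted p below 0.05). At an unadjusted p below 0.05, 26 were higher and 1 lower. Their median log2 fold change was 1.78, beside -0.06 over all genes, and stayed 1.78 with the 3 genes at 0 in CD48dim set to their bound. The count was 3 without CD41- CD9- replicate 1, 7 without CD41- CD9- replicate 2 and 31 (30 higher) without CD48dim replicate 1. Counts from fits with other choices ran from 7, with only the 4 libraries compared, to 27, with no filter on low counts.

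Of 15 plasmacytoid genes tested, 6 rose and the median was 2.92. Ly6d, a marker of early lymphoid and plasmacytoid progenitors, averaged 114 ± 52.9 CPM in CD41- CD9- cells, 1.34 CPM in CD34bright, 11.6 ± 5.44 CPM in CD48bright and 0.0734 ± 0.104 CPM in CD48dim (log2 fold change over CD48dim 10.13 ± 0.93, adjusted p = 0.00115, edgeR). Cox6a2, a cytochrome c oxidase subunit, was at 0 counts in CD48dim cells and at least 220.9-fold higher, at 31.7 ± 6.36 CPM. Tlr9 and Tlr7, which sense DNA and RNA in endosomes, also rose: Tlr9 averaged 49.5 ± 13.2 CPM in CD41- CD9- and 0.367 ± 0.519 CPM in CD48dim cells, and Tlr7 91.7 ± 8.24 CPM in CD41- CD9- and 1.76 ± 2.29 CPM in CD48dim cells. Ccr9, a chemokine receptor, and Il12a, an interleukin subunit, rose by 4.87 ± 0.62 and 2.92 ± 0.53 on the log2 scale. Plac8, Irf7 and Lag3, also on this list, had log2 fold changes of 1.53, 0.24 and -0.57 that did not pass. Without CD41- CD9- replicate 1 the calls of Tlr9, Tlr7, Ccr9 and Il12a were lost, and without CD41- CD9- replicate 2 those of Tlr7 and Il12a. Without CD48dim replicate 1 the log2 fold changes were 13.61 for Ly6d, 12.41 for Tlr9 and 9.30 for Tlr7, beside 10.13, 6.84 and 5.61. Without CD48dim replicate 2 they were 9.52 for Ly6d, 6.06 for Tlr9, 4.76 for Tlr7 and 3.57 for Il12a.

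Of 17 conventional dendritic genes 3 rose, with a median of 1.59: Clec9a, a receptor for dead cells, by 5.85 ± 1.13 to 74.4 ± 24.7 CPM, the amidase gene Naaa by 2.22 ± 0.52 and the peptidase gene Dpp4 by 1.78 ± 0.36. The change of Clec9a was 4.76 without CD48dim replicate 1 and 9.83 without CD48dim replicate 2. All 3 calls were lost without CD41- CD9- replicate 1 or CD41- CD9- replicate 2, those of Dpp4 and Naaa also without CD34bright replicate 1 or CD34bright replicate 2, and that of Naaa also without CD48bright replicate 1 or CD48bright replicate 2. The class II antigen presentation genes did not pass by edgeR, with an adjusted p of 0.0847 for H2-Aa, which DESeq2 called. H2-Aa had 84.0 ± 28.6 CPM in CD41- CD9- and 27.9 ± 8.63 CPM in CD48dim cells, and its level was highest in CD48bright cells, at 176 ± 25.5 CPM. Cd74 likewise had 179 ± 85.8 CPM in CD41- CD9-, 277 ± 72.5 CPM in CD48bright and 47.5 ± 50.5 CPM in CD48dim cells.

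Of 15 transcription factors 5 rose, with a median of 2.11. Irf8 averaged 962 ± 200.8 CPM in CD41- CD9-, 142 CPM in CD34bright, 188 ± 26.4 CPM in CD48bright and 3.55 ± 4.63 CPM in CD48dim cells (log2 fold change over CD48dim 7.99 ± 1.02, adjusted p = 0.00445, edgeR). Nfil3 rose by 5.23 ± 0.78, Spib by 4.78 ± 0.87, Klf4 by 3.09 ± 0.48 and Runx2 by 2.11 ± 0.33. Without CD41- CD9- replicate 1 these 4 calls were lost, and without CD41- CD9- replicate 2 those of Spib and Runx2. Without CD48dim replicate 1 the log2 fold changes were 11.74 for Irf8, 6.49 for Nfil3 and 6.51 for Spib, and without CD48dim replicate 2 they were 7.14 for Irf8 and 4.07 for Spib. Tcf4, the E protein of plasmacytoid cells, had 582 ± 141 CPM in CD41- CD9- and 175 ± 98.9 CPM in CD48dim cells and did not pass by edgeR (adjusted p = 0.0935). Zbtb46, a factor of conventional dendritic cells, was low throughout, at 4.54 CPM in CD41- CD9- and 5.16 CPM in CD48dim cells, and Batf3 had 0.752 CPM in CD41- CD9-, 1.38 CPM in CD48bright and 0 in CD48dim cells. Id2 had 20.7 ± 0.261 CPM in CD41- CD9-, 22.3 ± 0.888 CPM in CD48bright and 2.95 ± 1.27 CPM in CD48dim cells and did not pass by edgeR (adjusted p = 0.0645). Both Id2 and Tcf4 were called by DESeq2 and by edgeR with no filter on low counts. Both were also called with a replicate block, though the labels do not say that replicate numbers pair libraries. Id2 was also called without CD48dim replicate 1 or CD48dim replicate 2, and Tcf4 without CD48dim replicate 2.

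**Figure D4:**
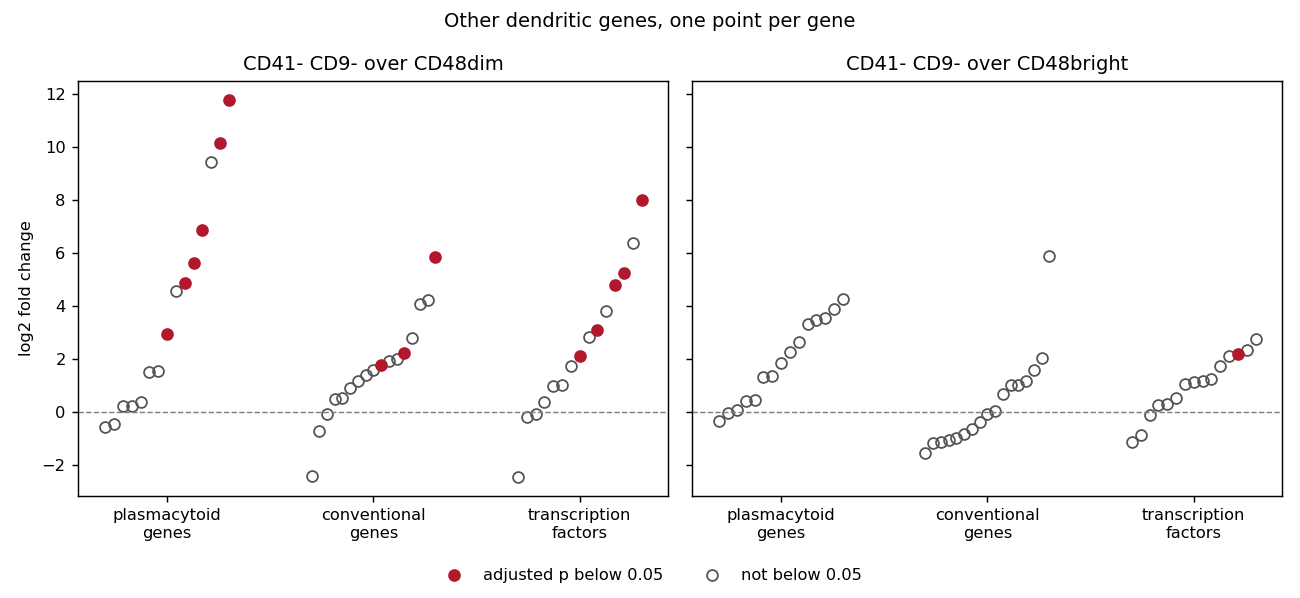
Log2 fold change of each tested gene of the 3 dendritic lists in CD41- CD9- over CD48dim cells (left) and over CD48bright cells (right), with red points for an adjusted p below 0.05. On the left 14 of 47 points are red and all of those lie above 0, and on the right 1 is red.

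The same 47 genes were read in the other comparisons. In CD48bright over CD48dim, 2 rose, Ly6d and Irf8 (4.26%, beside 0.387% of all tested genes in either direction and 0.273% higher), with a median of 1.19. Irf8 rose by 5.64 ± 0.92 (adjusted p = 0.0453, edgeR), and its change was 9.39 without CD48dim replicate 1 and 4.79 without CD48dim replicate 2. That count was 0 without CD41- CD9- replicate 1, CD41- CD9- replicate 2 or CD48bright replicate 2, 1 without CD34bright replicate 1, CD34bright replicate 2 or CD48bright replicate 1, 22 (21 higher) without CD48dim replicate 1 and 11 without CD48dim replicate 2.

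In CD41- CD9- over CD48bright, 1 rose, Runx2, at 1529 ± 8.07 CPM in CD41- CD9- and 332 ± 36.8 CPM in CD48bright cells (adjusted p = 0.0485, edgeR), which is 2.13%, beside 0.212% of all in either direction and 0.0835% higher. The median was 1.03. That count was 14 without the CD48dim libraries, and 14 without CD48dim replicate 1 or CD48dim replicate 2. It was 0 without any 1 of the other 6 libraries. In CD34bright over CD48bright none of the 47 passed by edgeR, with 14 at an unadjusted p below 0.05, all lower, and 4 by DESeq2 (Ly6d, H2-Aa, Naaa and Id2, also lower), and the median was -1.06. That count was 3 without CD48dim replicate 1 or CD48dim replicate 2.

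Markers of neighbouring cell types were read beside these genes. In CD41- CD9- over CD48dim cells, 4.02% of all tested genes were called by edgeR in either direction. Of 9 tested monocyte and macrophage markers, Cx3cr1, Csf1r and Ly86 rose and Vcam1 fell in CD41- CD9- over CD48dim (edgeR), and the summed level over 10 genes was 1001 to 1112 CPM in CD41- CD9-, 290.2 to 415 CPM in CD34bright, 350 to 540.0 CPM in CD48bright and 130.9 to 260 CPM in CD48dim cells, with Ms4a7 at 0 in CD41- CD9- and CD34bright cells. Over 8 B cell markers, none at 0 in CD41- CD9- cells, the sums were 84.1 to 109 CPM in CD41- CD9-, 22.6 to 26.0 in CD34bright, 28.8 to 36.5 in CD48bright and 44.4 to 60.9 in CD48dim cells. Platelet and megakaryocyte markers went the other way, with all 8 lower in sign and 5 that fell in CD41- CD9- over CD48dim cells by edgeR (6 by DESeq2, 3 by limma-voom), sums of 48.5 to 56.1 CPM in CD41- CD9- against 859 to 891 CPM in CD48dim cells, and Pf4, Ppbp and Treml1 at 0 in CD41- CD9- cells. The part of these cell types in the levels of the 8 genes was not tested.

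The 8 genes were compared among themselves over the 8 libraries, on log2(CPM + 1). Because the libraries form 4 populations and the genes were picked for a shared pattern, these correlations are a description. The correlation of a gene with the mean of the other 7 was 0.99 for Siglech and Ctnnd2, 0.86 for Cd209a and 0.83 for Rasal1. The least alike pair was Cd209a and Rasal1, at 0.55, and these mark the ends of the set: Cd209a is shared by CD41- CD9- and CD48bright cells, and Rasal1 is almost restricted to CD41- CD9- cells.

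Among 10477 other tested genes with a mean of at least 5 CPM, the 10 most like the mean profile of the 8 were Kctd12 and Tpm4 (both r = 0.992), Dntt (0.989), Ahnak (0.987), Cd28 (0.986), Tlr9 (0.984), Ly6d (0.982), Ctsh (0.979), Unc93b1 and AI607873 (both 0.978), over the same 8 libraries. Dntt, the lymphoid DNA polymerase that adds bases at antigen receptor joints, averaged 1204 ± 421 CPM in CD41- CD9-, 14.7 CPM in CD34bright, 69.1 CPM in CD48bright and 1.12 CPM in CD48dim cells. Unc93b1, which carries Toll-like receptors to endosomes, averaged 188 ± 25.6 CPM in CD41- CD9-, 55.2 CPM in CD34bright, 66.9 CPM in CD48bright and 25.4 CPM in CD48dim cells. Kctd12 kept 77.7 ± 7.55 CPM in CD48dim cells, so likeness of shape did not require a level near 0 there.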

How the data were processed

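RNA was measured in 8 libraries, 2 for each of 4 populations grouped by sort gate. Per the labels' protocols, 5 ng of total RNA was amplified (Ovation RNA-Seq System V2), and the libraries are not stranded, so reads of overlapping or antisense genes cannot be told apart. No gene of the files overlaps any of the 8 members. RefSeq genes that are absent from the files do overlap Siglech (Gm39015), Strip2 (Gm52897) and Ctnnd2 (several). Whether their reads entered the counts of these members was not tested. Per the file headers the deposited values are RSEM expected counts, which need not be whole, and TPM, which is scaled by transcript length. The submitters' processing notes name STAR 2.7.2a, RSEM 1.3.2, edgeR 3.30.3 and mm10, with no settings. The posterior SD of the deposited counts of the 8 genes was at most 0.35. A second deposited table of expected counts holds 9918 of the genes with the same values.

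Expected counts were rounded (1.52% to 2.2% of the genes in a library had a fraction), filtered with filterByExpr by population and scaled by TMM. Differences were tested in R 4.3.3 with edgeR 4.0.16 (glmQLFit, glmQLFTest) in 1 model of all 8 libraries, with 4 residual degrees of freedom, a biological coefficient of variation of 49.8%, Benjamini-Hochberg adjustment over 13177 genes and a threshold of 0.05, two-sided. SE is the log2 fold change over the square root of F. The fit was also run on simulated data in which genes were changed in CD34bright cells only. That run does not bear on the calls over CD48dim cells. Alternatives used DESeq2 1.42.0, limma 3.58.1 (voom), other scaling, filters and sample sets, left-out libraries and a replicate block. Levels at 0 are limited at 3 counts over a population.

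The members, lists and tests were chosen with earlier results of these data known. Named were the 8 members, genes of their family and partner lists, up to 6 called genes per dendritic list with the largest change, Irf8, Tcf4, Spib, Zbtb46, Batf3 and Id2, the 10 most alike genes and sort marker genes. Plac8, Irf7, Lag3, H2-Aa, Cd74 and the cell type markers named by their calls were picked after their values were seen. Kyat1, Kyat3 and Cd300c2 were matched through RefSeq synonyms, and Trbc2 was not matched. Calls of single B cell markers are not reported here.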

Additional observations from a re-analysis of the deposited data

How the results depend on the processing

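The levels of the 8 genes held their order in CD41- CD9- over CD48bright cells under the 6 alternatives run for them. The number of the 8 called in CD34bright over CD48bright, 0 by edgeR, was 1 (Itgax) with DESeq2, 1 in a fit without the CD48dim libraries, an alternative chosen after seeing the data, 2 (Itgax and Siglech) with no filter on low counts, and 0 to 1 with 1 library left out. Rasal1, at 0.56, became -0.74 with limma-voom and ran over -5.03 (without CD34bright replicate 1) to 1.51 with 1 library left out, and Strip2, at 0.04, became -0.10 with limma-voom, -0.53 without CD48bright replicate 2 and ran over -0.82 (without CD34bright replicate 2) to 1.07 with 1 library left out; both rest on few counts, and the cause was not tested. Of 119 values for the 8 genes in that comparison, 108 kept direction and call. Rasal1 could not be fitted with only the 4 libraries compared, since it did not pass the filter there.

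For the 47 dendritic genes, CD41- CD9- over CD48dim gave 25 calls with DESeq2, 27 with no filter, 7 with only the libraries compared, 22 with the replicate block and 3 to 31 with 1 library left out, beside 14. Ly6d, Cox6a2 and Irf8 were called under all 14 alternatives, and each of the other 11 calls was lost under at least 1. CD48bright over CD48dim, 2 calls, gave 14 with DESeq2, 0 with limma-voom, 17 with no filter, 0 with only the libraries compared, 7 with the replicate block and 0 to 22 with 1 library left out. CD41- CD9- over CD48bright, 1 call, gave 13 with DESeq2, 6 with limma-voom, 14 without the CD48dim libraries, 10 with no filter, 13 with only the libraries compared, 5 with the replicate block and 0 to 14 with 1 library left out. CD34bright over CD48bright, 0 calls, gave 4 with DESeq2, 2 without the CD48dim libraries, 5 with no filter and 0 to 3 with 1 library left out. Over all genes, CD41- CD9- over CD48dim had 530 calls, 1536 with DESeq2, 1191 with no filter, 129 with only the libraries compared and 965 with the replicate block. Under the same 4 choices, CD48bright over CD48dim had 51 calls, then 759, 588, 0 and 178. CD41- CD9- over CD48bright had 28, then 366, 301, 307 and 99. CD34bright over CD48bright had 0, then 37, 39, 0 and 0. The labels do not say that replicate numbers pair libraries; deviations of same-numbered libraries correlated at 0.112 to 0.222. With the replicate block, Tcf4 (adjusted p = 0.00876) and Id2 (adjusted p = 0.0297) were called in CD41- CD9- over CD48dim. Of the 10 most alike genes, 2 were shared when ranked by Spearman's rho and 8 with a pseudocount of 0.5. With 2 libraries a population, a gene with no count in CD48dim cells may still have a level of up to 0.143 CPM (3 counts over both libraries). The shallower CD48dim library had 7237587 counts, so the limit in that library alone is higher.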

Other observations

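Near-silence in CD48dim cells with a clear level in CD41- CD9- cells was not limited to the 8 genes. Of 13177 tested genes, 33 (0.25%) had at most 3 counts over both CD48dim libraries and at least 5 CPM in both CD41- CD9- libraries. These include the 8 genes and 25 others, 13 of which had no CD48dim count. Beside Ly6d and Cox6a2, they hold the fractalkine receptor gene Cx3cr1, at 43.4 CPM in CD41- CD9-, 10.8 CPM in CD34bright, 13.4 CPM in CD48bright and 0.0367 CPM in CD48dim cells, and the MYC family gene Mycl, at 25.2 CPM in CD41- CD9-, 2.78 CPM in CD34bright, 7.83 CPM in CD48bright and 0 in CD48dim cells. The Fc receptor-like genes Fcrla and Fcrl1, known from B cells, had the same shape, with Fcrla at 19.1 CPM and Fcrl1 at 12.7 CPM in CD41- CD9- cells, and 0.0734 CPM and 0 in CD48dim cells. The interferon-inducible gene Ifi205 is the other case, beside Cd209a, of a level in CD48bright cells close to that in CD41- CD9- cells, at 22.3 CPM in CD41- CD9-, 2.19 CPM in CD34bright, 30.1 CPM in CD48bright and 0 in CD48dim cells; it belongs to a close gene family whose members can share reads, so its level is uncertain. These genes were selected on the values given, which are a description with no test.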
